A study of Mus musculus with 6 samples.

Results

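The comparison described here is between the livers of mice with diet- and toxin-induced non-alcoholic steatohepatitis (NASH) and those of healthy control mice (CTL), without isorhamnetin in either group. It takes in 4 of the 6 arrays of the study, CTL 1, CTL 2, NASH 1 and NASH 2, and all 45037 probe sets that are not controls, of 45141 entries in the deposited value table. The rule that defined the comparison took in every probe set, whatever its values. All mice were male C57BL/6J animals, 6 weeks old on arrival, kept for 1 week on chow and then split into groups of 8. CTL mice stayed on chow and received the vehicles (corn oil, dimethyl sulfoxide and the oral vehicle of isorhamnetin). NASH mice ate a diet with 60% of its calories from fat from day 0 to day 24. They also received 4 injections of CCl4 at 0.1 ml/kg between day 14 and day 24, 5 injections of T0901317 at 2.5 ml/kg from day 20 to day 24, and the oral vehicle. Since diet, CCl4 and T0901317 came together in every NASH animal, their shares in any difference cannot be told apart. Both arrays of a group are labelled as technical repeats, and the sources do not say how many of the 8 mice went into one. Errors and p-values therefore measure the spread between arrays and may leave out that between mice.

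As background, T0901317 is an agonist of the liver X receptors, nuclear receptors that sense oxysterols and switch on Srebf1 and, with it, the enzymes that make fatty acids. Sterol synthesis is driven mainly by the related factor Srebf2, which cells activate when membrane cholesterol is low. CCl4 is turned into a reactive radical by cytochrome P450 enzymes of the hepatocytes around the central vein, above all Cyp2e1, and those cells are the ones it kills. The surviving hepatocytes re-enter the cell cycle, and stellate cells, which store vitamin A at rest, turn into matrix-producing myofibroblasts.

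Signals are log2 values made by robust multi-array averaging (RMA), so a difference of 1 is a 2-fold change. Where a gene had several probe sets, the brightest one over the 4 arrays stood for it, which gave 20670 genes. Statements on a gene are about this probe set unless another is named. The highest of 17 control probe sets without a mouse target read 2.90 log2 and served as a guide to background. For a gene with 1 group below this level, a fold change is stated only as a bound against the guide, though its signal levels may be given. Groups were compared with limma. A gene is said to have risen or fallen at a Benjamini-Hochberg adjusted p under 0.05, and is called when it also changed at least 2-fold. Arrays of one group lay close together, with a median absolute difference of 0.0529 log2 between the CTL arrays and 0.0472 between the NASH arrays, against 0.154 to 0.159 across groups. One sign of RNA quality moved with the group. The signal of the 3′ control probe set of Gapdh exceeded that of its 5′ probe set by 3.82 and 3.79 log2 on the CTL arrays and by 3.01 and 3.0 on the NASH arrays. For actin the gap was 5.00 and 4.88 in CTL and 4.43 and 4.41 in NASH. Its part in the results below was not tested. In whole tissue, fewer cells of a type and less RNA per cell cannot be told apart.

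Of the probe sets, 1121 (2.49%) were called higher and 500 (1.11%) lower in NASH livers. With no minimum fold, 9835 (21.8%) rose and 12109 (26.9%) fell. Read as genes, 591 (2.86%) were called higher and 261 (1.26%) lower, while 5054 (24.5%) rose and 5767 (27.9%) fell at any fold. These percentages are the background for every count of list members below. The excess of falls at any fold depended on the kind of scaling. With the medians of the arrays made equal, 11356 probe sets rose and 9497 fell, whereas after quantile normalization 9678 rose and 11409 fell. The median difference over all genes was -0.04. Rises went further than falls: 90 genes rose at least 4-fold and 18 at least 8-fold, against 31 and 10 genes that fell as far. Calls followed the signal level. Among 1146 genes with a mean between 8 and 10 log2, 7.16% were called higher and 4.54% lower, but of 5535 genes under the background guide 0 were called higher and 1 lower. The most abundant liver transcripts moved little. Albumin (Alb) read 12.5 on both CTL arrays and 12.6 on both NASH arrays, and transthyretin (Ttr) differed by -0.02, neither past the test, although a dimmer probe set of Ttr rose by 0.17. Among the 10 brightest genes of the CTL arrays, Car3, a carbonic anhydrase of fat, muscle and male liver, was the one with a call, going from 12.2 and 12.3 to 11.0 on both NASH arrays. Standard errors of the genes named below ranged from 0.0381 to 0.133 log2, and the adjusted p of those said to have risen or fallen from 8.02e-07 to 0.0334.

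**Figure D1:**
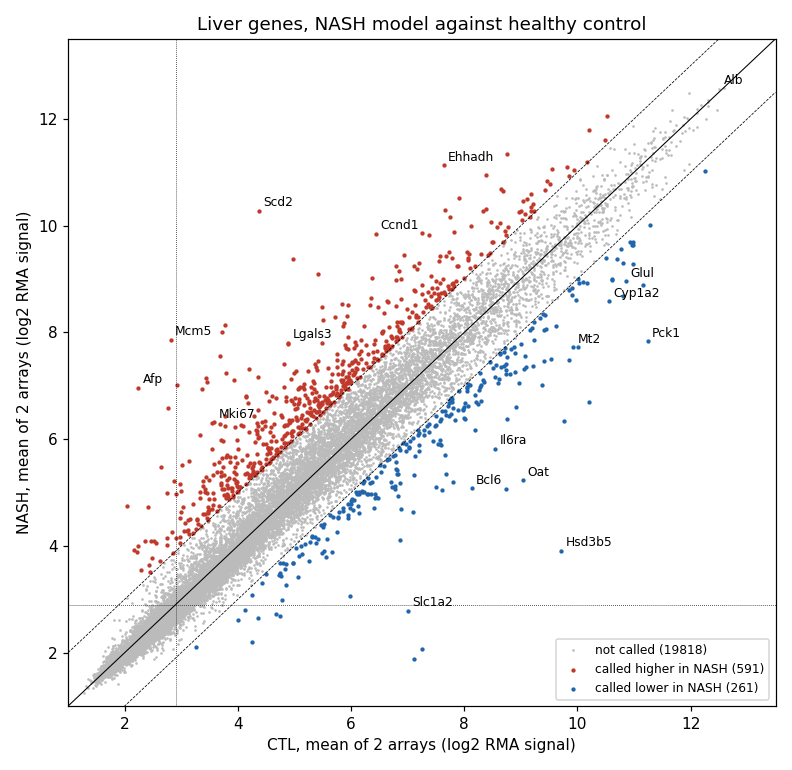
Mean log2 RMA signal of each of 20670 genes in CTL (x axis) and NASH (y axis), 2 arrays each; red, 591 genes called higher; blue, 261 called lower; dashed lines mark a 2-fold difference and dotted lines the background guide of 2.90. The points called higher spread furthest from the diagonal at low and middle CTL levels, while most of the brightest genes lie along it.

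Enzymes of fatty acid synthesis and desaturation rose as a block. All 18 measured members rose and 13 were called (median difference 1.16, range 0.40 to 5.92). Acacb, the mitochondrial acetyl-CoA carboxylase whose product restrains fat oxidation, read 6.85 and 6.72 on the CTL arrays and 9.23 and 9.24 on the NASH arrays, a rise of 2.45. Elovl6, which elongates palmitate, went from 8.36 and 8.39 to 10.9 and 10.9 (2.56). Me1, the malic enzyme that supplies NADPH to lipogenesis, rose from 7.72 and 7.78 to 10.1 and 10.2 (2.41). In each of these genes both NASH arrays lay above both CTL arrays, which their selection by a call all but ensures. Scd1, the main desaturase of liver, shows how the choice of probe set matters. Its brightest probe set was already at 12.0 in CTL, near the top of the scale, and rose by 0.51, whereas its second one rose by 3.24 from 7.15. The later steps of fat assembly did not move as one. Of 14 measured genes of triglyceride synthesis, 2 were called, both acyltransferases of the first step: Gpat3 went from 4.32 and 4.24 to 6.41 and 6.46 (2.15) and Gpam rose by 1.60. Dgat2, which makes the final bond, fell by 0.73 from 9.59, although a dimmer probe set of it rose by 0.48. Lpin1, the phosphatidate phosphatase, read 9.66 and 9.63 in CTL and 8.63 and 8.67 in NASH (-0.99), just short of 2-fold, and its second probe set fell by 1.26.

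Genes of cholesterol synthesis rose almost without exception, 24 of 26 measured members, of which 14 were called (median 1.29). Sqle, squalene epoxidase, went from 5.47 and 5.55 to 8.21 and 8.25 (2.72). Srebf2 itself differed by -0.03 on its brightest probe set, without passing the test, and rose by 0.97 on its second. Ggps1, which leads from the pathway to protein prenylation, fell by 0.80 (4 probe sets, from -0.80 to -0.06). Insig1, which holds back SREBP activation, rose by 0.92. Hmgcs1, a synthase early in the pathway, rose by 0.80 on its brightest probe set, at 10.6 in CTL, and by up to 2.49 on its 5 probe sets. Its promoter window from RefSeq is shown because it was the only one of the list to hold the SREBP site searched (TCACNCCAC on either strand, in 1 of 21 windows of 18 matched genes, 4.76%, against 1.24% of all 32851 windows). The window lies at chr13:119690101-119690400 on the plus strand of GRCm38.p6, runs from 250 bases before to 50 bases after the start, and has the match in capitals.
Hmgcs1: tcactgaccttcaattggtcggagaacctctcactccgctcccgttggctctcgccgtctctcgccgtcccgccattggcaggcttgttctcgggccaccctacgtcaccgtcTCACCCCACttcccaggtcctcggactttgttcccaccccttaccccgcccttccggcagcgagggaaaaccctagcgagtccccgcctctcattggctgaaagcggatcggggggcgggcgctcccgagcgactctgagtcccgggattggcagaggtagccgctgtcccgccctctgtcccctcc

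Fatty acid uptake and activation was the list with the highest median, 1.38, with 11 of 21 measured members called higher and 0 lower. Cd36, a fatty acid transporter of the plasma membrane, read 5.89 and 5.82 in CTL and 8.11 and 8.12 in NASH (2.26). The cytosolic thioesterase Acot1 went from 5.30 and 5.52 to 9.11 and 9.07 (3.68), and Acot2, Acot3 and Acot4 rose by 2.19, 1.87 and 1.44. Among the acyl-CoA synthetases, Acsl3 and Acsl4 rose by 2.57 and 2.52, while Acsl1, the most abundant one at 11.1, rose by 0.27. The liver-type carrier Fabp1, at 12.2, differed by 0.08 and did not pass the test, and its second probe set rose by 0.19. Slc27a5 and Slc27a2, transporters that activate bile acids and very long chains, fell by 0.59 and 0.23.

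Oxidation of fatty acids rose unevenly. In mitochondria 19 of 24 measured genes rose, 3 of them with a call (median 0.48). Pdk4, a kinase that shuts pyruvate out of the mitochondrial oxidation, went from 3.56 and 3.52 to 6.27 and 6.33 (2.76), and Hadha, a subunit of the trifunctional protein, rose by 1.40. The gatekeeper Cpt1a differed by -0.08 and -0.07 on its 2 brighter probe sets without passing the test and fell by 0.56 on another. The coactivator Ppargc1a fell from 6.59 and 6.58 to 5.48 and 5.51 (-1.09). Of 18 genes of peroxisomal and omega oxidation, 12 rose. Ehhadh, the peroxisomal bifunctional enzyme, read 7.61 and 7.65 in CTL and 11.1 on both NASH arrays (3.50). The omega-hydroxylases parted ways: Cyp4a31 and Cyp4a14 rose by 2.63 and 1.53, whereas Cyp4a12a, which male livers express, fell by 1.34. Members of this gene family resemble each other closely, so their probe sets may share signal.

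Of 19 genes of lipid droplets and lipases 8 rose and 7 fell. Plin2, which coats lipid droplets, rose by 1.28 from 9.79 and 9.83, and Abhd5, an activator of droplet lipase, by 1.77. Fitm1, which helps droplets form, fell from 6.45 and 6.51 to 4.92 and 4.86 (-1.59), and Plin4 fell by 1.27. Cidec and Cidea, droplet proteins of fat cells, lay under the background guide in both groups. For lipoproteins, Apoa4 went from 7.93 and 7.89 to 10.5 on both NASH arrays (2.61) and Mttp, which loads lipid onto apolipoprotein B, rose by 1.45. Apob itself fell by 0.79 on its brightest and by 0.73 on its second probe set. The abundant Apoa1, Apoa2, Apoc3 and Apoe differed by 0.00, -0.07, 0.07 and 0.10, none past the test.

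Membrane lipids were affected at single steps. Etnppl, which breaks down phosphoethanolamine, fell by 3.43, and Gpcpd1, which splits glycerophosphocholine, went from 7.55 and 7.59 to 5.95 and 6.01 (-1.58). Chka, the first kinase of phosphatidylcholine synthesis, rose by 1.25, and Lpcat3, which puts polyunsaturated chains into phospholipids, by 1.11. In the sphingolipid list 1 of 25 members was called, Sgms2, a sphingomyelin synthase that fell by 1.16. Sptlc1 and Sptlc2, the subunits of the first enzyme, rose by 0.99 and 0.76, although a dimmer Sptlc1 probe set fell by 0.14. Bile acid genes tended downward (16 of 24 fell, 6 rose). The classical enzyme Cyp7a1 rose from 6.34 and 6.40 to 9.01 and 9.02 (2.65), while Cyp7b1, of the alternative route, fell from 8.77 and 8.75 to 6.36 and 6.41 (-2.38). The exporter Abcc4 rose by 1.60 and its relative Abcc3 fell by 1.36. The FXR gene Nr1h4 and its target Nr0b2 fell by 0.34 and 0.50.

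**Figure D2:**
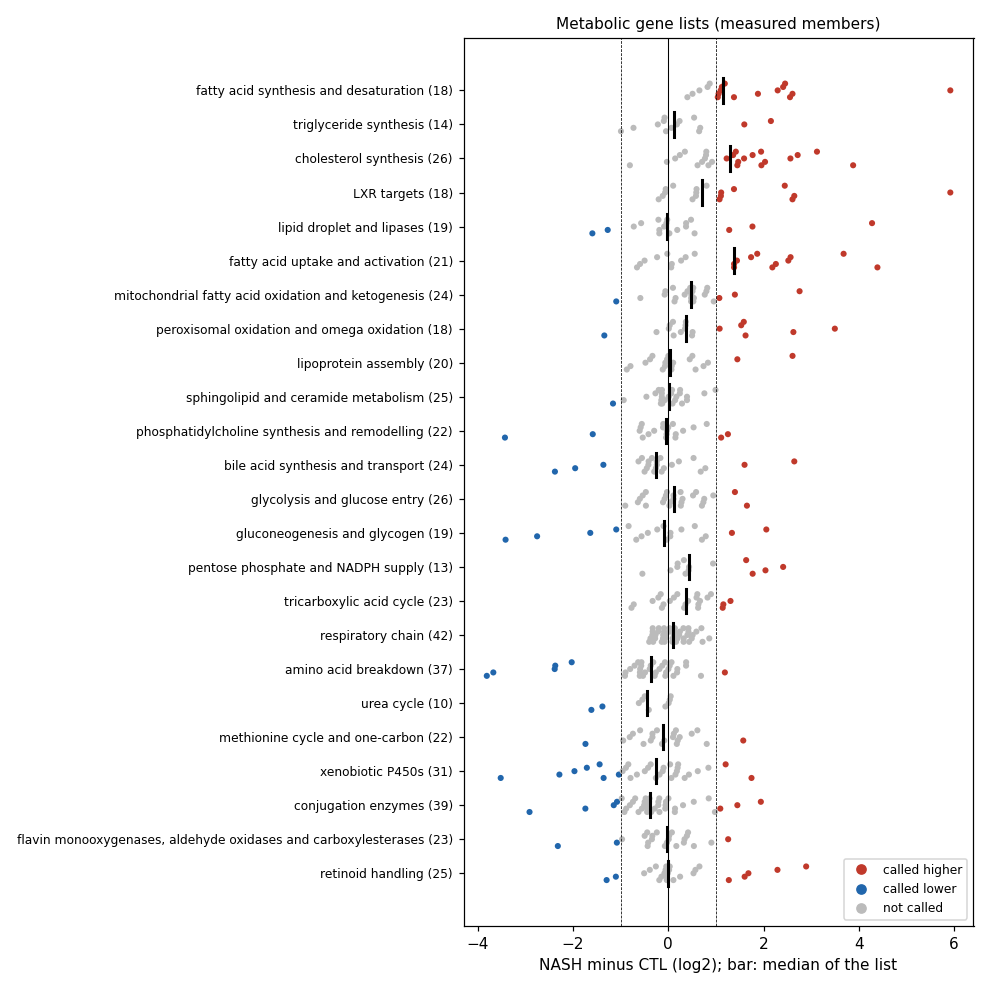
Log2 difference, NASH minus CTL (x axis), of each measured member (points) of 24 metabolic gene lists; bars are list medians, numbers in brackets the measured members, and dashed lines a 2-fold difference. Fatty acid synthesis, cholesterol synthesis and fatty acid uptake have medians of 1.16, 1.29 and 1.38, whereas amino acid breakdown and conjugation enzymes lie at -0.37 and -0.39.

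Glucose metabolism changed at single steps. Ldha, lactate dehydrogenase, rose from 8.58 and 8.57 to 9.96 and 9.998 (1.40), while 12 of 26 genes of glycolysis rose and 6 fell. The regulators of glycogen moved in opposite directions. Ppp1r3b, a subunit that brings protein phosphatase to glycogen, went from 7.79 and 7.87 to 9.90 and 9.87 (2.06), and its relative Ppp1r3g from 6.87 and 6.85 to 4.18 and 4.04 (-2.75). Gys2, the glycogen synthase of liver, fell from 8.88 and 8.90 to 7.25 on both NASH arrays (-1.64), and Gbe1, the branching enzyme, rose by 1.34. Of the enzymes that make glucose, Pck1 fell by 3.41, G6pc by 0.67 and Fbp1 by 0.23. In the pentose phosphate route, which yields NADPH and ribose, 11 of 13 genes rose and 4 were called. Rpia, the ribose phosphate isomerase, read 5.35 and 5.37 in CTL and 7.40 on both NASH arrays (2.04), Pgd rose by 1.77 and G6pdx by 1.64. In the tricarboxylic acid cycle 14 of 23 genes rose, with Dld, Dlat and citrate synthase (Cs) at 1.31, 1.16 and 1.14, but Idh3b and Fh1 fell by 0.77 and 0.72. None of 42 subunits of the respiratory chain was called (median 0.09, from -0.40 to 0.86).

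Breakdown of amino acids was lower. Of 37 measured genes, 23 fell and 6 rose, 5 were called lower and 1 higher (median -0.37). Beside Oat and Hal, which fell by 3.81 and 3.67, the called genes were Gls2, Sds and Amdhd1. Gls2, the liver glutaminase, went from 9.87 and 9.85 to 7.48 and 7.47 (-2.38). Sds, serine dehydratase, went from 9.38 on both CTL arrays to 7.04 and 6.99 (-2.37), and Amdhd1, which acts after Hal on histidine, from 9.53 and 9.52 to 7.53 and 7.48 (-2.03). The enzymes of tyrosine moved less, with Hpd at -0.53 and Tat at -0.26. Csad, which leads to taurine, was the member called higher (1.19). In the urea cycle, Asl fell from 9.46 and 9.42 to 8.09 and 8.03 (-1.38) and the arginine carrier Slc7a2 by 1.61, while Cps1, the first step, differed by 0.03 and did not pass. Nnmt, which methylates nicotinamide, fell from 9.08 and 9.09 to 7.36 and 7.34 (-1.74). Psph, the last enzyme of serine synthesis, rose by 1.57. Phgdh, the first, fell by 0.33 on its brightest probe set and rose by 0.32 on the other one above the guide in both groups. Dimmer Phgdh probe sets rose by 1.47 and 0.70 from under the guide.

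Drug metabolism fell in part and rose in part. Of 31 xenobiotic P450 genes, 17 fell and 10 rose, with 7 called lower and 2 higher. Cyp1a2 went from 10.5 and 10.6 to 8.60 and 8.56 (-1.97), and Cyp2c23 from 10.01 on both CTL arrays to 7.73 and 7.72 (-2.28). Cyp2e1, which activates CCl4, fell by 0.84 from 11.9. Cyp3a11 and Cyp2c29, at 12.3 and 11.3, differed by 0.04 and -0.10 without passing. Cyp2b9, which is low in male livers, rose from 3.40 and 3.57 to 5.25 and 5.22 (1.75). Among 39 conjugation enzymes, 26 fell and 9 rose, and the families went separate ways. The glutathione transferases of the mu class rose, with Gstm3 going from 8.37 and 8.39 to 10.3 on both NASH arrays (1.94) and Gstm2, Gstm4, Gstm6, Gstm7 and Gstm1 rising by 1.45, 1.09, 0.98, 0.85 and 0.54. Gsta2, of the alpha class, fell from 9.07 and 9.04 to 7.31 and 7.32 (-1.74), and Gsta4 fell by 0.74. Gsta3 fell by 0.18 on its brightest probe set and rose by 1.10 on its second. The UDP-glucuronosyltransferases on the list fell without exception, from Ugt2b38, which went from 6.05 and 5.91 to 3.0 and 3.13 (-2.91), to Ugt2b34 at -0.21, although a dimmer probe set of Ugt2b34 rose by 0.17. These families hold near-identical copies, so a probe set may read more than the gene it is named for. The aldehyde oxidases Aox3 and Aox1 fell by 2.32 and 1.08. In retinoid handling, Lrat, which stores vitamin A as ester and marks stellate cells, fell by 0.26, and Cyp26a1, which degrades retinoic acid, fell by 1.29.

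Genes of DNA replication rose from low levels. Mcm2 to Mcm7, the 6 subunits of the ring that unwinds DNA at origins, all rose. Mcm5, just under the background guide in CTL (2.81) and at 7.86 in NASH, was at least 31.2-fold higher on its brightest probe set. Another Mcm5 probe set rose by 1.73, from 2.92 to 4.65, and the remaining one lay under the guide in both groups. Mcm3 read 3.32 and 3.40 in CTL and 6.94 and 6.95 in NASH (3.58), Mcm2 rose from 5.59 and 5.37 to 8.44 and 8.50 (2.99), and Mcm7 from 6.67 and 6.63 to 8.57 and 8.58 (1.92). Cdc6, which loads this ring, was under the background guide in CTL (2.02 and 2.05) and at 4.75 in NASH, at least 3.61-fold higher. Its partner Cdt1 rose by 2.31. In all, 14 of 22 measured genes of licensing and origin firing rose and 10 were called (median 0.94). Orc1 and Ticrr did not pass the test, nor did Cdc45 on its brightest probe set, whereas its other one rose by 0.34. Mcm10 fell by 0.97 on a probe set at 8.43 in CTL.

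Promoter windows of Mcm5, Mcm6, Mcm3 and Cdc6 are shown because these genes rose together and 8 of the 19 windows of the list (42.1%, 16 matched genes) held an E2F site, searched as TTTGGCGC, TTTCCCGC, TTTCGCGC or TTTGCCGC on either strand. Of all 32851 RefSeq windows, 744 (2.26%) held one. Each runs from 250 bases before to 50 bases after the start (GRCm38.p6), with the matches in capitals. Overlapping matches run together, as in the first 2. The windows lie at chr8:75109259-75109558 (plus strand), chr1:128359656-128359955 (minus), chr1:20820263-20820562 (minus) and chr11:98907901-98908200 (plus).
Mcm5: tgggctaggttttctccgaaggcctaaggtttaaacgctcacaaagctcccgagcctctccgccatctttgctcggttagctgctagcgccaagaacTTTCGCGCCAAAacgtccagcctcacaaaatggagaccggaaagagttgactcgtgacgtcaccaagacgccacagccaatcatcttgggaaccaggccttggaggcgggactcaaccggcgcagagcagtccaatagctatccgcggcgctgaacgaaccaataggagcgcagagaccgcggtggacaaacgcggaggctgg
Mcm6: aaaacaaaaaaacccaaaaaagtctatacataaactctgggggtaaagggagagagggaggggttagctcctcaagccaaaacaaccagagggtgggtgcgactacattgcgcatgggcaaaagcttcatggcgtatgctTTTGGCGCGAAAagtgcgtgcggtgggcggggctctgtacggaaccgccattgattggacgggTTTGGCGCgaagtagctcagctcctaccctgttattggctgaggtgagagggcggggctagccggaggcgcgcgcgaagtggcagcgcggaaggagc
Mcm3: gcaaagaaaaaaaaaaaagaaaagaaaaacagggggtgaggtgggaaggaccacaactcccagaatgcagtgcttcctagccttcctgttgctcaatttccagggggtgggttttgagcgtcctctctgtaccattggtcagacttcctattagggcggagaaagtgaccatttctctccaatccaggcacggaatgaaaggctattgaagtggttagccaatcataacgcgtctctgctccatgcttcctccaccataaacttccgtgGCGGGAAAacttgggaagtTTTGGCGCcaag
Cdc6: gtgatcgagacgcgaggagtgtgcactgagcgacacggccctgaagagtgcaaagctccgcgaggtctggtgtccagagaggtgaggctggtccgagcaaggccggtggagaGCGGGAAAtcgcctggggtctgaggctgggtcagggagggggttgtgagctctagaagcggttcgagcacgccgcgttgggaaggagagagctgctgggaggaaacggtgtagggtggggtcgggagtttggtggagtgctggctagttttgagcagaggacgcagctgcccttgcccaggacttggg

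The S phase list, enzymes that make nucleotides and copy DNA, rose more uniformly than any other stage of the cycle read here: 32 of 36 genes rose and 16 were called (median 0.85). Rrm2, the regulated subunit of ribonucleotide reductase, went from 5.79 and 5.89 to 8.53 and 8.54 (2.69), Uhrf1, which copies DNA methylation, from 3.27 and 3.38 to 6.07 and 6.10 (2.76), and Pcna, the sliding clamp, from 5.95 and 5.93 to 7.67 and 7.71 (1.75). The replication checkpoint kinase Chek1 rose by 2.61. Tyms, thymidylate synthase, lay close to the background guide and did not pass. Genes of G2 and mitosis followed in smaller number. Of 37, 24 rose and 7 were called (median 0.25), and 8 lay under the guide in both groups. Mki67, the proliferation antigen Ki-67, went from 3.44 and 3.71 to 6.24 and 6.39 (2.75), Cdc20, which starts anaphase, from 3.95 and 4.21 to 6.26 and 6.22 (2.16), and Ccna2, cyclin A2, from 3.35 and 3.30 to 5.04 and 5.00 (1.69). Of the dimmer probe sets of Cdc20, one rose by 0.30 and the other differed by 0.16 without passing. Ccnb1 differed by -0.06 and did not pass the test, and Foxm1, which drives mitotic genes, fell by 0.17. The chosen probe set hid a rise in some of them. Top2a was represented by a probe set that differed by 0.22, but another went from 2.30, under the guide, to 4.31, and Cdca3 fell by 0.32 on its brightest probe set and rose by 1.06 on another. The CHR element of mitotic promoters (TTTGAA on either strand) was in 28 of 34 windows of the list (82.4%) against 17.9% of all windows, and CCAAT in 28 (82.4%) against 37.4%. CCAAT is not particular to this list, since 17 of 21 windows of cholesterol synthesis (81%) held it. CHR and CCAAT both stood in the mitotic list as a whole, including genes that did not pass the test. Mki67 held the former at both positions in capitals (chr7:135716330-135716629, minus strand).
Mki67: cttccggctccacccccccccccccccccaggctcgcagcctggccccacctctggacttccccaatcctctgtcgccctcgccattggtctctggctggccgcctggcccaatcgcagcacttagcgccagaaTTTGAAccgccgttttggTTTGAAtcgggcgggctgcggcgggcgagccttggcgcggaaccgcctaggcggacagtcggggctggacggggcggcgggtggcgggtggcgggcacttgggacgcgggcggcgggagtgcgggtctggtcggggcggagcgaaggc

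Regulators of the entry into S phase rose with them. Ccnd1, cyclin D1, was bright already in CTL (6.44 and 6.42) and reached 9.83 and 9.87 in NASH (3.42). Ccne2, cyclin E2, rose at least 2.03-fold from under the guide, and the repressors of E2F targets Rbl1 and E2f8 rose by 1.92 and 1.61. The cell cycle inhibitor Cdkn1a (p21) rose too, from 4.91 and 4.78 to 6.71 and 6.70 (1.86), while Cdkn1b (p27) fell by 0.38 and Cdkn2a lay under the guide in both groups. Of 25 targets of p53, 17 rose and 4 fell, with Gadd45a at least 2.30-fold higher, Gadd45b at 1.38 and Mdm2 at 0.59 on its brightest probe set, and Bax did not pass the test. Of 27 oncofetal and ductal genes 9 rose and 8 fell, and 5 were called higher, among them Afp, the albumin of fetal liver, at least 16.7-fold. Gpc3, Dlk1 and Igf2bp3 did not pass.

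Chaperones of the cytosol rose. Of 22 heat shock proteins, 18 rose and 8 were called (median 0.62). Hsp90aa1, the inducible Hsp90, went from 8.65 and 8.64 to 10.7 on both NASH arrays (2.05), and Hspa4l, of the Hsp110 family, from 4.38 and 4.32 to 6.57 and 6.51 (2.19). The constitutive Hspa8 and the inducible Hspa1b differed by 0.11 and 0.09 on their brightest probe sets, neither past the test. Others of Hspa1b rose by 2.36 and 1.69, and those of Hspa8 that passed rose by 0.29 and 0.30 or fell by 0.33. In the endoplasmic reticulum, Manf rose from 6.53 and 6.62 to 8.38 and 8.34 (1.79) and Hspa5 (BiP) from 9.18 and 9.20 to 10.4 and 10.3 (1.16). In all, 13 of 26 genes of the unfolded protein response rose and 7 fell: Ddit3 (CHOP) did not pass on its brightest probe set and fell by 0.48 on another, and Herpud1 fell by 0.49. Xbp1 fell by 0.21 on its brightest probe set but rose by 0.78 on another. Targets of Atf4 were split, with Atf5, Nupr1, Gdf15 and Asns rising by 1.76, 1.63, 1.22 and 1.02 and Trib3 and Vldlr at -1.39 and -1.32. In the proteasome 26 of 31 subunits rose, 5 with a call (median 0.31), led by Psmd13 at 1.87, although another of its 4 probe sets fell by 0.84. Cytosolic ribosomal proteins had a median of 0.21, with 3 of 31 called higher (Rplp2, Rplp0 and Rps24). A dimmer Rps24 probe set differed by -0.17 and did not pass.

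Of 31 genes of oxidative defence 19 rose and 8 fell, with 3 called higher and 1 lower. Srxn1, sulfiredoxin, went from 5.10 and 5.11 to 6.98 and 6.97 (1.87) and Nqo1 rose by 0.52, but both subunits of glutamate-cysteine ligase fell (Gclc at -0.61, Gclm at -0.47), as did Gss (-0.98), although a second Gclm probe set rose by 0.16. Prdx6, a peroxiredoxin, fell from 5.55 and 5.62 to 4.15 and 4.10 (-1.46). The metallothioneins, which bind zinc and copper, fell from high levels: Mt2 from 9.94 and 9.92 to 7.73 and 7.72 (-2.21), and Mt1 from 11.0 and 10.9 to 9.64 and 9.65 (-1.32). Tfrc, the transferrin receptor, rose by 1.69 and Lcn2, which binds iron-loaded siderophores, by 1.86, while Slc40a1, the iron exporter, fell by 0.73. Of 29 genes of apoptosis and TNF receptors, 7 rose, 9 fell and 1 was called, Mlkl, the executor of necroptosis, at least 1.53-fold higher from under the guide. Tnfrsf12a, the receptor of TWEAK, rose from 4.77 on both CTL arrays to 5.72 and 5.66 (0.91), Casp2 by 0.57 and Fas by 0.36. Tnf and Casp8 did not pass. Casp6 and Tnfrsf21 did not pass on their brightest probe sets, but others differed by -0.29 and 0.25, both past the test.

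**Figure D3:**
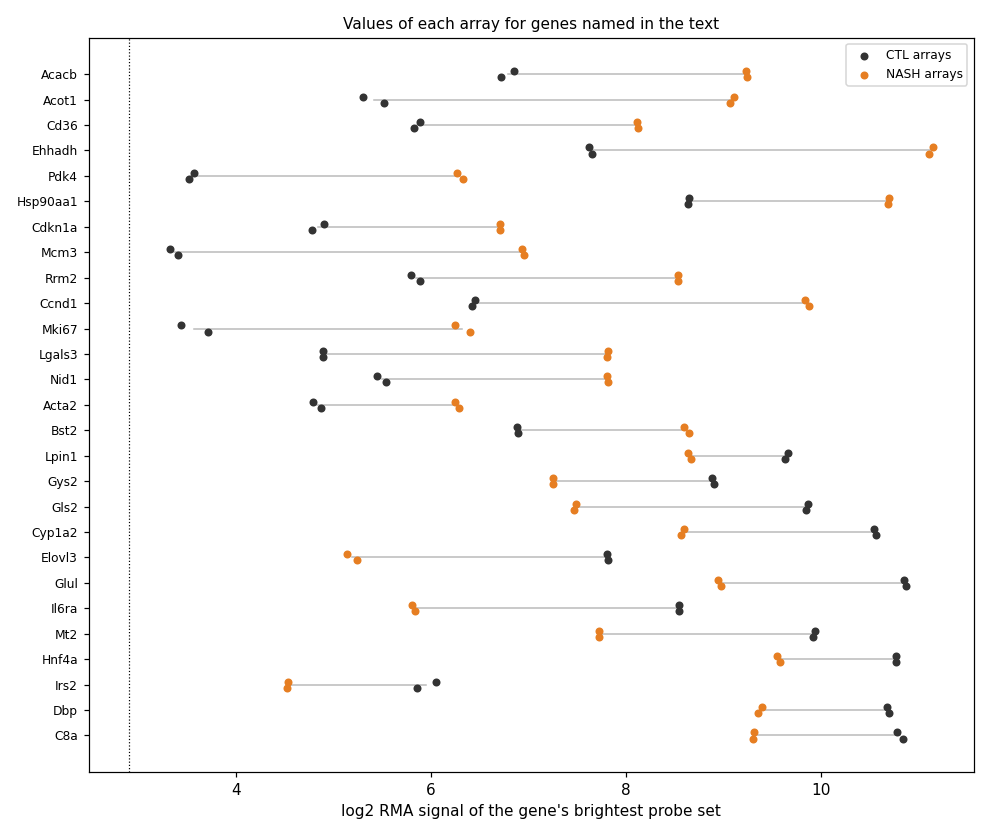
Log2 RMA signal (x axis) of the brightest probe set of 27 genes on each CTL array (black) and each NASH array (orange); grey lines join the group means and the dotted line marks the background guide. In each gene the gap between groups exceeds the distance between arrays of a group, as in Ccnd1 (6.44 and 6.42 against 9.83 and 9.87). The genes were picked among those that had changed, so this gap is not a separate result.

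Markers of myofibroblasts rose, with the collagens behind them. Of 14 markers of activated stellate cells 12 rose and 7 were called (median 0.88), and the log2 of their mean linear signal went from 5.37 and 5.36 to 6.39 on both NASH arrays. The part of a larger number of such cells in the matrix results was not tested. Pdgfrb, the PDGF receptor of these cells, went from 4.95 and 4.93 to 6.74 on both NASH arrays (1.80), Ccn2 from 4.38 and 4.34 to 6.07 and 5.97 (1.66) and Acta2, smooth muscle actin, from 4.79 and 4.87 to 6.24 and 6.28 (1.43), with 2 dimmer probe sets under the guide in both groups. Postn fell by 0.15, Lox did not pass and Timp1, a protease inhibitor, went from 2.70, under the guide, to 2.92, just above it. Of 22 collagens 12 rose, 3 with a call: Col4a2 from 3.54 and 3.44 to 4.88 and 4.87 (1.39), Col1a1 from 5.36 and 5.39 to 6.48 and 6.52 (1.12) and Col3a1 from 7.05 and 7.06 to 8.06 on both arrays (1.003). Col5a3 went the other way, from 7.61 and 7.56 to 5.87 and 5.92 (-1.69). Nid1, which links laminin and collagen in basement membranes, had the largest rise of the matrix glycoproteins, from 5.45 and 5.54 to 7.80 and 7.82 (2.32). Tgfb1 and its receptor Tgfbr1 did not pass (0.06 and -0.02). The signal of Tgfb1 was low, at 3.52 in CTL and 3.59 in NASH, and its other probe set lay under the guide in both groups. Pdgfa and the BMP and TGF-beta targets Id1, Id2 and Id3 rose by 1.77, 1.33, 1.12 and 1.001 (a dimmer Id2 probe set fell by 0.96). Markers of resting stellate cells gave no single direction: Rgs5 rose by 0.73, Ecm1 fell by 1.06 and Des and Reln did not pass.

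The cytoskeleton list had 13 of 31 members called higher and 0 lower (median 0.64). Lgals3, galectin-3, went from 4.89 on both CTL arrays to 7.81 and 7.80 (2.91), Anxa2, a membrane scaffold, from 4.44 and 4.29 to 7.17 and 7.15 (2.80), Tubb2a, a beta tubulin, from 7.24 and 7.28 to 9.88 and 9.85 (2.60) and Actg1, gamma actin, from 7.58 and 7.57 to 9.44 and 9.42 (1.85). Actb and Tubb5 rose by 0.40 and 0.39. The hepatocyte keratins Krt8 and Krt18 rose by 1.14 and 1.08. Of 10 markers of cholangiocytes, the cells of bile ducts, 3 rose and 3 fell, with 1 called, Spp1 (higher), and a median difference of -0.01. The log2 of their mean linear signal went from 4.75 and 4.74 to 5.45 and 5.48. Spp1 (7.15 in CTL, 8.29 in NASH) weighs most in that mean, and it is also on the lists of activated stellate cells and recruited macrophages. Krt19 and Tspan8 fell by 0.24 and 0.37, Krt7 lay under the guide in both groups, and Epcam did not pass on its brightest probe set but rose by 0.29 on another.

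Inflammatory transcripts were sparse. Of 28 chemokines and receptors 9 rose, 2 with a call: Ccl6 from 5.23 and 5.28 to 6.52 and 6.45 (1.23) and Cxcl9, which interferon gamma induces, from 4.45 and 4.31 to 5.58 and 5.51 (1.16). Ccl2 and Cx3cr1 did not pass, nor did Ccr2 on its brightest probe set. Cxcl1, a neutrophil attractant, fell from 7.21 and 7.19 to 5.80 and 5.75 (-1.42). Il6, Il1b, Tnf and Ifng did not pass, and Il6 and Ifng lay under the guide in both groups. Of 34 cytokines and innate receptors 9 rose and 14 fell, with 3 called lower: Il6ra from 8.54 on both CTL arrays to 5.81 and 5.84 (-2.72), Il1r1 from 7.65 and 7.68 to 5.70 and 5.71 (-1.96), and Socs3, the feedback inhibitor that interleukin 6 induces, at -1.46. Il1rap, a subunit of the interleukin 1 receptor, fell by 0.91. Interferon-stimulated genes rose (25 of 33, with 6 called, median 0.53). Bst2, tetherin, went from 6.89 on both CTL arrays to 8.59 and 8.64 (1.73) and Ifi44 from 3.25 and 3.50 to 5.14 and 5.10 (1.75), while Mx1 lay under the guide and Iigp1 fell by 0.32. The interferon element ISRE, searched on both strands, was in 13 of 27 windows of that list (48.1%) against 3.44% of all.

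Markers of blood-borne cells did not rise with the group. None of 10 neutrophil, 13 T and NK cell, 9 B cell and 8 dendritic cell markers was called in either direction, and 1 of these 40 rose (Nkg7, from under the guide to 2.94, just above it). In the same order, 2, 3, 5 and 2 fell, and 4, 4, 2 and 1 lay under the guide in both groups. The mean levels of these lists were low, from 3.42 to 4.08 log2, so a small number of such cells may have gone undetected. For macrophages the picture was mixed. Of 13 Kupffer cell markers, C1qb, Cd5l and Marco rose by 1.48, 1.31 and 1.18, Cd163 fell by 1.19, and Clec4f, Vsig4 and Adgre1 did not pass. The list of recruited and lipid-associated macrophages had 5 of 16 members called, Fabp5, Lgals3, Lpl, Cd9 and Spp1, which several other liver cells also make. Over the whole list, the median difference was 0.70, and the log2 of the mean linear signal was 5.26 and 5.24 in CTL and 7.26 on both NASH arrays. Lpl (7.38 in CTL, 9.82 in NASH) and Fabp5 (4.98 and 9.37) weigh heavily in that mean. In this list 9 members rose and 0 fell. Trem2, Cd68 and Itgam did not pass, and neither did Ccr2 on its brightest probe set. A dimmer Ccr2 probe set rose by 0.465 from under the guide. Trem2 (3.35 in CTL) and Cd68 (3.17) lay near the guide, and Itgam under it in both groups. Gpnmb, another gene of lipid-laden macrophages, rose by 0.78. Of 9 hepatocyte markers Hnf4a was called, lower. Endothelial markers had 0 calls in 22. Of 10 markers of pancreas, gut and muscle, 0 rose and 7 fell, by at most 0.37.

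**Figure D4:**
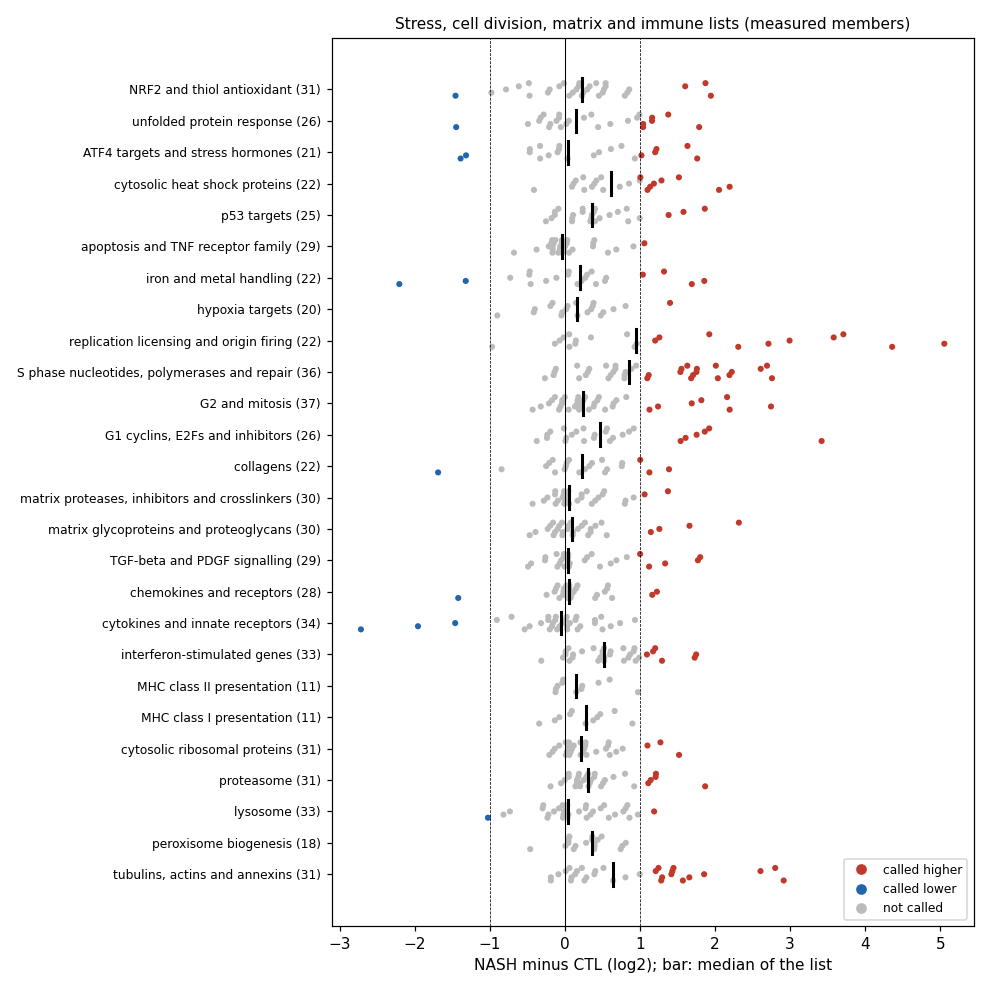
Log2 difference, NASH minus CTL (x axis), of each measured member of lists of stress, cell division, matrix, immunity, organelles and housekeeping; bars are medians, brackets give the measured members and dashed lines a 2-fold difference. Licensing, S phase and cytoskeletal genes lie to the right (medians 0.94, 0.85 and 0.64), while cytokines and innate receptors centre on -0.05 with 3 members called lower.

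Male-biased genes were lower and some female-biased genes higher in these male mice. Of 14 male-biased genes 11 fell, 8 of them with a call, and 0 rose (median -1.24). Elovl3, a fatty acid elongase, went from 7.80 and 7.82 to 5.14 and 5.24 (-2.62), Slco1a1, an organic anion carrier, from 9.42 and 9.41 to 7.50 and 7.42 (-1.95) and Susd4 from 5.59 and 5.77 to 4.49 and 4.58 (-1.14), beside Hsd3b5 at -5.81. Mup3, a major urinary protein made mostly by males, fell by 1.27. Of 18 female-biased genes 11 rose, 4 with a call, among them Cyp17a1 from 4.31 and 4.40 to 6.25 on both NASH arrays (1.89). Others of that list, Sult3a1, Sult1e1, Sult2a2 and Hao2, stayed under the guide in both groups. Bcl6, a repressor that is higher in male liver, fell by 3.05. Igf1 fell by 0.24, the growth hormone receptor Ghr by 0.48 and Stat5b, its mediator, by 0.47. The prolactin receptor Prlr rose by 1.25 on its brightest probe set, while another fell by 0.16.

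Zonation, the division of labour between hepatocytes at the portal and the central end of the lobule, was altered at both ends. Of 24 pericentral genes 16 fell and 6 were called lower. Glul, glutamine synthetase of the last cells before the central vein, went from 10.8 and 10.9 to 8.94 and 8.97 (-1.90), Slc13a3 from 6.78 on both CTL arrays to 5.11 and 5.15 (-1.65) and Lgr5, a Wnt co-receptor, from 4.26 and 4.24 to 3.01 and 3.14 (-1.17). Slc1a2, the glutamate carrier of the same cells, reached background. Of this zone 3 genes were called higher. Cldn2, a tight junction protein, rose from 6.09 and 6.06 to 7.81 and 7.83 (1.75), and Aldh3a2 and Slc1a4 rose by 1.62 and 1.43. The Wnt target Axin2 did not pass. Of 24 periportal genes 16 fell as well, and 8 were called lower with 0 higher. Pigr, which carries IgA into bile, went from 11.2 on both CTL arrays to 8.89 and 8.87 (-2.28) and Cyp2f2 from 11.0 and 11.0 to 9.28 and 9.28 (-1.71). Cdh1, E-cadherin, rose by 0.81.

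The transcription factors of hepatocytes fell more often than they rose, 23 against 4 of 40. Hnf4a, the main regulator of hepatocyte identity, went from 10.8 on both CTL arrays to 9.54 and 9.58 (-1.21), with its second-brightest probe set at -0.87. Zbtb16 went from 7.70 and 7.65 to 5.36 and 5.33 (-2.33) and Nr1i2, the pregnane X receptor, from 6.95 and 6.97 to 5.81 and 5.75 (-1.18). Nr1i3, Ppara and Cebpa fell by 0.68, 0.58 and 0.53. Nr1h3, which encodes LXR alpha, rose by 0.58, and Foxa2 by 0.77.

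Genes of insulin signalling and of the daily clock were lower, 14 of 26 (4 rose) and 11 of 20 (2 rose). Irs2, an adaptor of the insulin receptor, went from 6.05 and 5.85 to 4.53 and 4.52 (-1.43), Irs1 from 7.77 and 7.78 to 6.46 and 6.49 (-1.30) and the receptor Insr itself from 9.23 and 9.18 to 8.07 and 8.10 (-1.12). Foxo3 and Foxo1 fell by 1.39 and 0.91, while Akt2 rose by 0.72 (another probe set fell by 0.47). Igfbp1, which insulin represses, rose from 8.68 and 8.70 to 10.6 and 10.7 (1.96). Of the clock genes 4 were called. Dbp, an output factor with a strong daily rhythm, went from 10.7 on both CTL arrays to 9.39 and 9.36 (-1.32), Usp2 from 8.95 and 8.97 to 7.05 and 7.07 (-1.90) and Per1 from 7.04 and 7.05 to 5.93 and 5.98 (-1.09), but Per2 rose by 0.85 and Arntl did not pass. Clock did not pass on its brightest probe set but rose by 0.62 and 0.34 on others. The sources do not state the hour at which each group was sampled. Immediate early genes were split: Jun, Klf6 and Atf3 rose by 1.54, 1.43 and 1.20, and Junb, Dusp1 and Maff fell by 1.57, 1.55 and 1.22.

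Secreted liver proteins were mostly steady or lower. Of 24 complement genes 14 fell. C8a and C8b, chains of the membrane attack complex, went from 10.8 on both CTL arrays to 9.31 and 9.30 (-1.51) and from 8.23 and 8.19 to 6.73 and 6.67 (-1.51), and C2 fell by 1.04. C1qb, C1qc and C1qa, which macrophages make, rose by 1.48, 0.72 and 0.54. In clotting, the kallikrein Klkb1 and factor XI (F11) fell (-1.07 and -1.03), whereas the fibrinogen chains Fga and Fgg rose by 0.34 and 0.27. The acute phase did not rise as a group (10 of 25 rose, 10 fell). Apcs, serum amyloid P, rose from 9.15 on both CTL arrays to 10.2 on both NASH arrays (1.01), Saa1 fell by 0.61, and Saa2, Saa3 and Hp did not pass. Enho and Serpina12, which encode the hormones adropin and vaspin, fell by 1.78 and 1.90, and the receptor Egfr fell from 9.92 and 9.88 to 8.83 on both NASH arrays (-1.07).

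**Figure D5:**
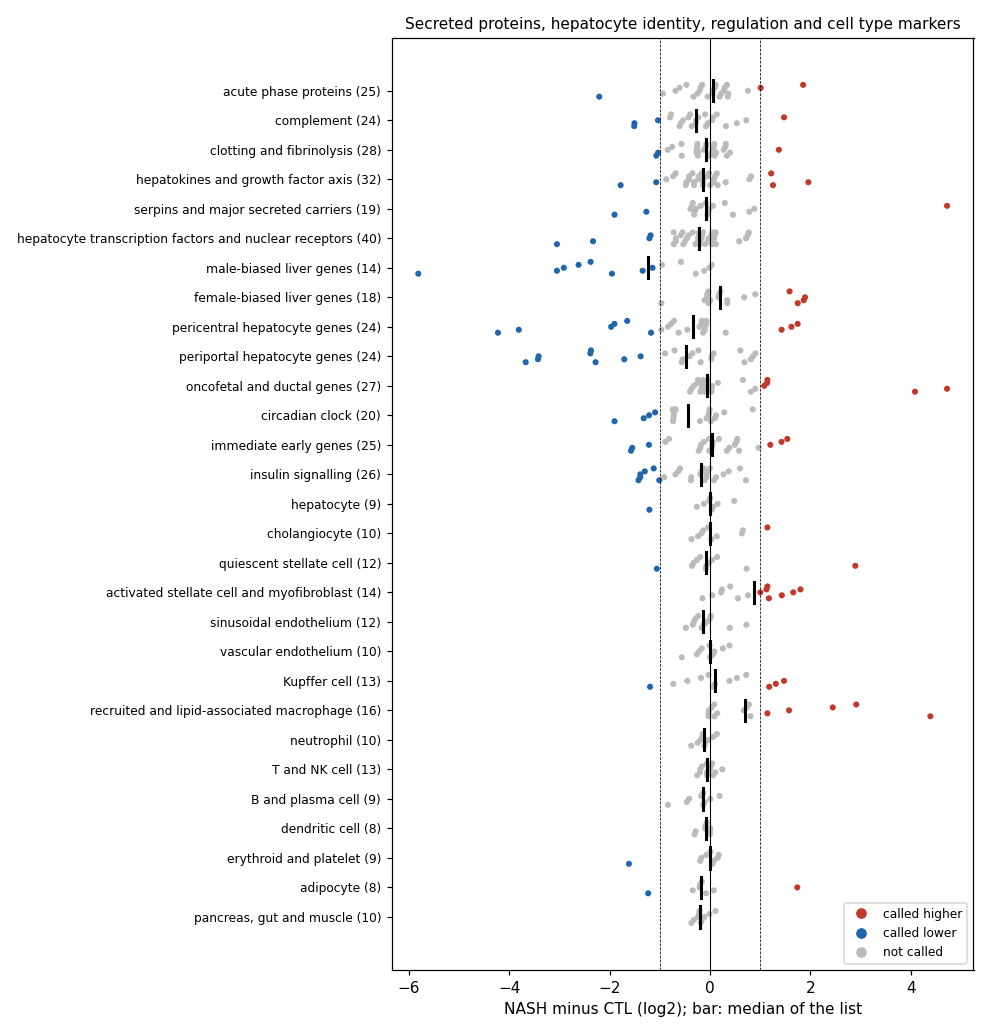
Log2 difference, NASH minus CTL (x axis), of each measured member of lists of secreted proteins, hepatocyte identity, regulation and cell type markers; bars are medians, brackets give the measured members and dashed lines a 2-fold difference. Male-biased genes have a median of -1.24 and activated stellate cell markers one of 0.88, while neutrophil, T, B and dendritic cell markers cluster around 0.

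Several of the 40 largest rises and falls belonged to no list. Rad51b and Fignl1, which act in repair by recombination, rose by 3.61, from 3.46 and 3.45 to 7.07 on both NASH arrays, and at least 5.96-fold. Their dimmer probe sets, at 3.11 and 3.33 in CTL, differed by -0.04 and 0.08 and did not pass the test. Cxadr, a tight junction protein, went from 3.98 and 3.88 to 7.09 and 7.11 (3.17), while its dimmer probe sets differed by 0.01 to 1.08. Mal2, needed for transport across hepatocytes, went from 4.85 and 4.79 to 7.42 and 7.39 (2.58). Acnat2, which joins fatty acids to amino acids, rose by 3.44. Other rises were Rassf6 at 2.66 and D17H6S56E-5 at 2.66. Among the falls, Nox4, an NADPH oxidase that makes hydrogen peroxide, went from 7.53 and 7.49 to 5.01 and 5.20 (-2.40) and Lhpp, a histidine phosphatase, from 6.86 and 6.91 to 4.61 and 4.77 (-2.20). Cyp4v3, a fatty acid hydroxylase, fell by 2.12 from 10.8. Mbd1, which binds methylated DNA, fell by 2.01, C730036E19Rik by 2.57 and the phosphate carrier gene Slc17a2 by 1.85. Lrit1, Neb and Olig1 ended under the guide, at least 3.58-, 2.56- and 3.43-fold lower, and Clcn2, a chloride channel, fell by 1.78.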

How the data were processed

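Liver RNA of 6 arrays (2 each of CTL, NASH and NASH with isorhamnetin) had been hybridised to the Affymetrix MG-430 PM array, a 1-colour array with several probes per probe set. The deposited log2 values are those the authors made by RMA in Affymetrix Expression Console (version not given in the sources used here), which removes background, quantile normalizes the arrays and summarises each probe set. A second table of log2 values of the same arrays, deposited with the comparison of NASH against CTL, served as an alternative and as the source of gene symbols. The fold changes and p-values of the authors' own comparisons in that table were not used.

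The 104 control probe sets were left out, and 45037 remained. Of these, 38068 named 1 gene, 1253 named several, 5654 none, and 62 held a date in place of a symbol. Symbols were matched to RefSeq (33189 current, 2004 older symbols updated, 2875 kept as given). The 4 arrays were fitted with limma 3.58.1 in R 4.3.3 (a mean for each group, empirical Bayes moderation with 3.75 prior degrees of freedom beside 2 residual ones, Benjamini-Hochberg adjustment over all probe sets). The number of arrays limits the precision, and an exact permutation test of 2 against 2 arrays cannot go below p = 0.333. The fit was tested on simulated data with 45037 probe sets: of 100 probe sets changed by 1 log2, 77 passed the adjusted p, and of 100 changed by 2 log2, 98 passed. No other probe sets were changed there, whereas 21.8% rose and 26.9% fell in the data, and spreads were shuffled among probe sets. The simulated shares therefore do not give the sensitivity of this comparison. Array values of control probe sets gave the background guide. The remaining steps ran in Python 3.11.15 with pandas 2.3.3, numpy 2.4.6 and matplotlib 3.10.9.

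The genes named were the 40 largest rises and falls among called genes, from which a selection is given, up to 6 called members of each of 79 lists, and members that show where a list did not move as a block. Some others, such as unmoved markers, were chosen after their values were seen. Some genes are not reported here. The members and lists were chosen with earlier results of these data known. Promoter windows and their motif matches are from RefSeq (GRCm38.p6) and are descriptions. The alternatives concerned the samples in the fit, moderation, scaling, source of values, filters, fold thresholds, probe set per gene, replicate block and leaving out each array.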

Additional observations from a re-analysis of the deposited data

How the results depend on the processing

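The counts of calls stayed within 1.5 times of those reported under most alternatives (91 of 102 values of 6 counts). The others came from the threshold or from fewer probe sets passing. At least 1.5-fold gave 3006 probe sets higher and 1667 lower (1604 and 859 genes), and at least 3-fold gave 347 and 125 (194 and 65 genes). Without moderation, 5477 probe sets rose and 4766 fell at any fold, and among probe sets brighter than the median 7840 fell. Quantile normalization gave 499 genes higher and 329 lower, of which 495 and 261 were among those reported, and median centring gave 653 and 239. Averaging all probe sets of a gene gave 419 genes higher and 186 lower, of which 387 and 176 were among the 591 and 261 reported. With the replicate number as a block, 591 genes were called higher and 261 lower, the same genes. The numbers only name the arrays, since deviations of same-numbered arrays correlated at 0.0465. Leaving out 1 array, with the lone array of its group assumed to vary like the other group, gave 583 to 607 genes higher and 264 to 267 lower (probe sets 1101 to 1152 and 502 to 509, and at any fold 7847 to 8357 and 8143 to 9418).

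For 8 of 345 named genes the direction turned under one of 2 other choices of probe set. Averaging all probe sets of a gene gave Cdca3 0.18, Gsta3 0.46, Phgdh 0.54 and Xbp1 0.13. The brightest probe set with a name that marks no cross-hybridisation gave Acta2 -0.0921, Akt2 -0.47, Cdca3 1.06, Rps24 -0.17, Ugt2b34 0.17 and Xbp1 0.78. For Acta2 that probe set lay under the background guide. Read one by one, 13 named genes had another probe set, above the guide in at least one group, that passed the test in the opposite direction, Mdm2 among them beside those named where they are described. A further 14, such as Ccr2, had one that passed where the brightest did not. Signals near the guide give bounds only, and those near the top of the scale leave little room for a rise. Lists were less steady. Under some alternative, 107 of 158 list counts changed by more than 1.5 times or to or from none (76 at 1.5-fold, 69 at 3-fold). List medians moved beyond a set margin in 40 of 79 lists, 21 under averaging of probe sets and 16 under quantile normalization. Of the named genes, 21 lost the pass of the test under some alternative and 30 gained it.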

Other observations

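Probe sets without a single gene name add 177 calls that belong to no count of genes above. Of those naming several genes or holding a date, 80 were higher in NASH and 11 lower, and of those naming none 27 were higher and 59 lower. The Xlr family, genes of the X chromosome, stood out among them: a probe set of Xlr4a, Xlr4b and Xlr4c read 2.58 and 2.66 in CTL, under the background guide, and 7.14 and 7.10 in NASH, and a probe set of Xlr3a, Xlr3b and Xlr3c went from 2.91 and 2.92 to 6.43 and 6.37 (3.49). Which member carried the signal cannot be told from these probes.

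Psat1, the middle enzyme of serine synthesis, shares its probe sets with LOC100047252, and one of them read 2.18 and 2.17 in CTL and 5.65 and 5.60 in NASH. Akr1b3, aldose reductase, shared with Gm6644, rose by 2.33 and 2.09 on its probe sets. A probe set of replication-linked histone genes (Hist1h2ab and others) went from 4.46 and 4.41 to 6.30 on both NASH arrays (1.86). Among the falls, Cyp2c37 with LOC101056460 went from 10.02 and 10.07 to 7.07 and 7.08 (-2.97). A probe set shared by Mup genes, listed first as Gm21320, went from 11.9 on both CTL arrays to 10.3 on both NASH arrays (-1.59), and one of Cyp2a4 and Cyp2a5 from 9.61 and 9.62 to 8.37 and 8.40 (-1.23).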
